A study of Rattus norvegicus with 4 samples.

Results

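The Hox genes were followed across the cell classes of rat peripheral nerve and ganglion in single-cell RNA sequencing. All gene symbols of the table made of Hox, a cluster letter from a to d and a paralogue number were taken, which gave 39 symbols on 44 of the 25399 rows. Hox genes encode homeodomain transcription factors and lie in 4 clusters, HoxA to HoxD, in which genes at the same relative place are paralogues with the same number. Low-numbered genes are active from the hindbrain backwards and high-numbered genes only towards the tail and the distal limb, so the set of Hox genes that a cell carries is a record of its position along the body axis, which many adult fibroblasts keep and which in sensory ganglia and spinal cord helps set neuron types.

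The study took Sprague Dawley rats, with the sex given as not determined, and made 1 library each from sciatic nerve and from dorsal root ganglion (the sensory ganglion beside the spinal cord) at postnatal day 1 and at 8 weeks. Its stated subject is the difference between ganglion and nerve in Schwann cells, which ensheath peripheral axons. The growth protocol describes Schwann cells in primary culture. Whether the cells were sequenced after culture or fresh, how many animals were pooled and which spinal levels gave the ganglia is not stated in the labels. All 4 libraries stand in 1 matrix, in which a number from 1 to 4 at the end of each barcode marks the library. The labels link none of these numbers with a sample. They are therefore called libraries 1 to 4, tissues and ages were not compared, and with 1 library per group no test was possible. Every interval below is a 95% interval that covers counting error only. It is an exact Poisson interval for a level, an exact binomial one for a share and the exact conditional one of 2 counts for a ratio, and for a mean paralogue number it comes from the standard error over UMIs.

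After filtering, 33175 cells remained of 41444 barcodes, with 9828, 8426, 6473 and 8448 cells and median depths of 6617, 1645.5, 4639 and 7554.5 UMIs (unique molecular identifiers, 1 per captured transcript) in libraries 1 to 4. Between 26 and 39 barcode sequences were shared by any 2 libraries. Cells were put in classes by marker genes. Peripheral glia numbered 171, 814, 236 and 6207, fibroblasts 6729, 247, 941 and 1181, endothelial cells 76, 295, 127 and 53, and macrophages 1714, 119, 74 and 101. Neurons numbered 0, 5220, 3381 and 2, and mural cells, the contractile cells of vessel walls, 3, 23, 43 and 59. Classes with under 20 cells in a library were left out there. Levels are CPM, the UMIs of a gene per 1000000 UMIs of the class. A UMI counts a molecule at its 3′ end and is not scaled by gene length, so levels of different genes also depend on how well their 3′ ends are annotated.

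Hox genes made up 37316 UMIs in cells, or 120.8 CPM. Of the 39 symbols, 28 had at least 1 UMI and 11 had none. Cluster C held 43.3% of these UMIs, cluster B 34.3%, cluster D 21.4% and cluster A 1.02%. In the order of their UMIs, Hoxc9 (5488), Hoxd1 (5148), Hoxb4 (5080), Hoxb7 (4937), Hoxc8 (4300), Hoxc10 (2653), Hoxc4 (2391), Hoxd9 (1734), Hoxb5 (929) and Hoxb3 (846) led, and these 10 genes held 89.8%. At the other end, Hoxc13 had 2 UMIs in cells, Hoxb1 had 1, and Hoxb13, Hoxc12, Hoxd12 and Hoxd13 had 0 in any barcode.

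The HoxA cluster was nearly silent in the table, and its rows were unusual. Hoxa4, Hoxa5, Hoxa6, Hoxa7, Hoxa9, Hoxa10 and Hoxa13 had 0 UMIs in all 336170988 UMIs, while Hoxa2 had 217 in cells, Hoxa11 104 and Hoxa3 58. The 11 HoxA symbols stood on 16 rows, since some symbols, such as Hoxa2 and Hoxa11, had several rows, whereas each symbol of the other clusters had 1 row. RefSeq (assembly GRCr8) lists 1 gene for each HoxA symbol. Hoxa5, Hoxa6, Hoxa7, Hoxa9, Hoxa10 and Hoxa13 had 1 row each and still had 0 UMIs. The part of the repeated rows in the HoxA counts was not tested, so HoxA levels are uncertain and a 0 there does not show that a gene was off.

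Macrophages, which arise from blood-forming tissue, served as the comparison class within each library. They do not measure how much RNA of one class strays into another: in library 1 they had Hoxb4 at 3.77 CPM (2.46 to 5.52) and fibroblasts at 0.463 CPM. Their summed Hox level was 9.13, 29.8, 31.0 and 4.20 CPM in libraries 1 to 4. Peripheral glia had 79.4, 169.7, 123.9 and 101.6 CPM, fibroblasts 70.1, 225.1, 271.8 and 65.9 CPM, and endothelial cells 256.1, 341.0, 131.9 and 197.0 CPM. Mural cells had 532.8, 283.9 and 114.8 CPM in libraries 2 to 4, on 48, 43 and 59 UMIs, and neurons had 101.3 and 171.6 CPM in libraries 2 and 3. Each of these levels was above that of the macrophages of its library, with intervals that did not overlap. No class was highest throughout: endothelial cells led in libraries 1 and 4 and mural cells in libraries 2 and 3, where in library 3 their interval overlapped that of fibroblasts.

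Shares of cells with a Hox UMI also lay above those of macrophages in each library. With every cell thinned to 2000 UMIs, a UMI of any Hox gene was found in 14.6%, 28.2%, 19.2% and 17.9% of peripheral glia, in 12.6%, 34.1%, 39.9% and 10.5% of fibroblasts and in 32.4%, 47.0%, 17.7% and 34.7% of endothelial cells. In macrophages the shares were 1.78%, 5.10% and 6.35% in libraries 1 to 3. That of library 3 was 4 of 63 cells, with an interval of 1.76% to 15.5%. It overlapped the intervals of glia and endothelial cells of that library. In library 4 the macrophage share was 0 of 99, with an exact interval up to 3.66%, and 3 cells of the 99 would be 3.03%. This limits cells with a UMI, not cells that express a Hox gene. Thinning left out 27, 41, 17 and 62 glia, 206, 21, 47 and 134 fibroblasts, 2, 10, 14 and 4 endothelial cells and 142, 21, 11 and 2 macrophages that were shallower. Without thinning the shares were 19.3%, 64.4%, 36.4% and 48.8% in glia at median depths of 2914, 8735, 4080 and 7321 UMIs, and 2.92%, 7.56%, 6.76% and 5.94% in macrophages at 3634.5, 2908, 3928 and 14123 UMIs. Unthinned fibroblasts had 41.1%, 67.2%, 67.7% and 48.2% at 7725, 6864, 5760 and 12456 UMIs, and endothelial cells 64.5%, 84.1%, 46.5% and 88.7% at 5708, 7418, 5596 and 15286 UMIs.

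**Figure D1:**
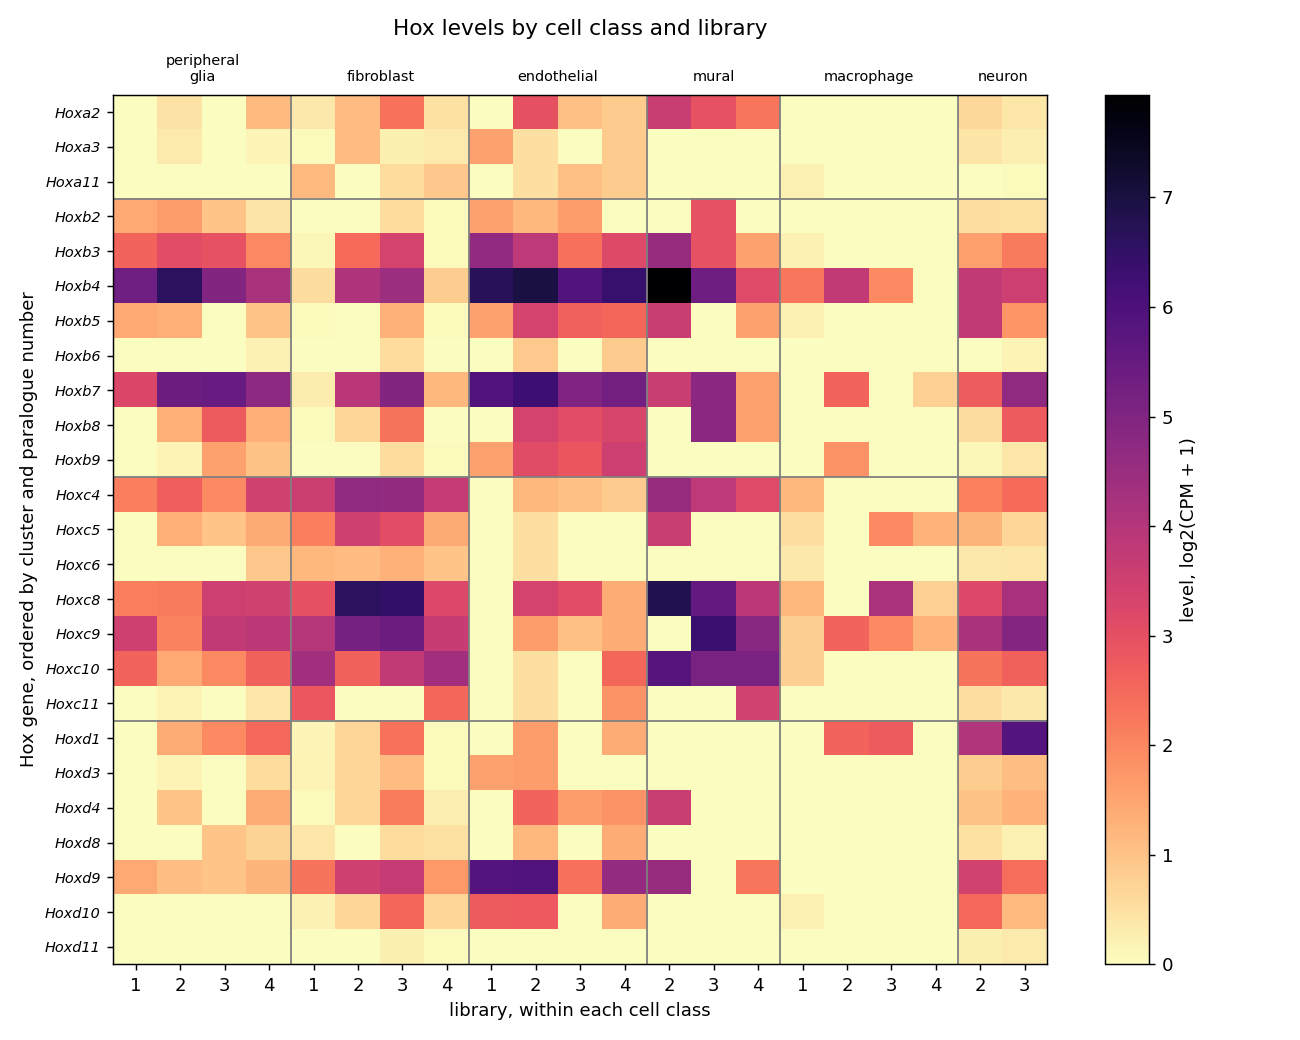
Levels of the Hox genes with at least 10 UMIs in cells, as log2(CPM + 1) in colour, with genes in rows by cluster and paralogue number and each cell class in columns by library. Hoxb4 is dark in glia and endothelial cells, as is Hoxb7 except in glia of library 1. Hoxc8 and Hoxc9 are dark in fibroblasts of libraries 2 and 3, Hoxc10 in mural cells and Hoxd1 in neurons, and Hoxc9 was at 0 CPM in mural cells of library 2.

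The cluster of origin separated peripheral glia from fibroblasts more sharply than the total did. In peripheral glia, HoxB genes gave 70.2%, 88.2%, 72.3% and 49.0% of the Hox UMIs in libraries 1 to 4, and in endothelial cells 74.3%, 71.0%, 86.5% and 77.6%. HoxC gave 27.7%, 9.15%, 23.8% and 41.0% of the glial Hox UMIs, so in library 4 its share came near that of HoxB. In fibroblasts HoxB gave 1.22%, 15.5%, 24.7% and 3.53%, and HoxC gave 89.8%, 77.9%, 64.1% and 88.7%. The glial and fibroblast shares of HoxB did not overlap in any library, and the lowest glial share, in library 4, was above the highest fibroblast share, in library 3. Mural cells had HoxC shares of 37.5%, 60.5% and 79.7% in libraries 2 to 4. Neurons were the class with the largest HoxD shares, 31.8% and 38.1%, beside HoxB shares of 32.6% and 27.8% and HoxC shares of 34.8% and 33.8%.

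**Figure D2:**
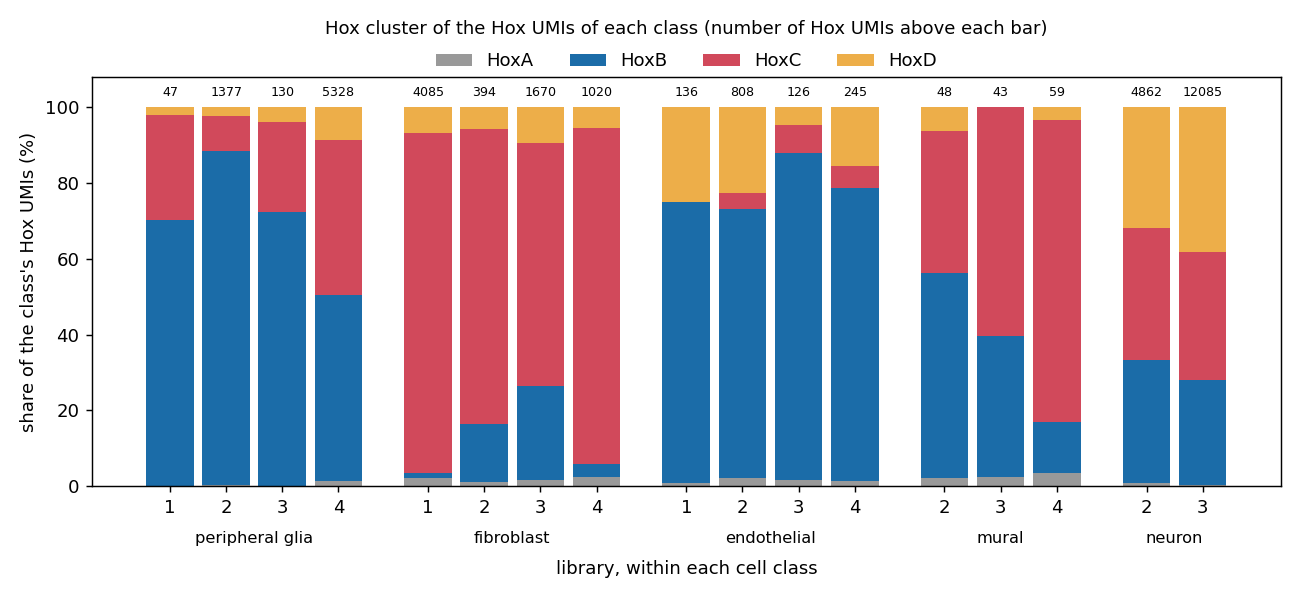
Share of the Hox UMIs of each class that came from clusters HoxA to HoxD, in percent, by library, with the number of Hox UMIs above each bar; macrophages are not drawn. HoxB fills most of the glial bar in libraries 1 to 3 and of each endothelial bar, HoxC fills most of each fibroblast bar, and HoxD is widest in neurons.

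The mean paralogue number of the Hox UMIs, which is higher where posterior genes weigh more, was 8.25, 7.12, 6.99 and 8.09 in fibroblasts and 5.53, 4.94, 6.24 and 6.19 in peripheral glia. Fibroblasts were higher than glia in each library, with intervals of 6.89 to 7.10 against 5.87 to 6.61 in library 3, where they lay nearest. Endothelial cells had means of 5.84, 5.98, 5.61 and 5.97, and neurons 6.05 and 5.21. Genes with numbers 10 to 13 gave 38.4%, 2.54%, 6.47% and 39.2% of fibroblast Hox UMIs and 6.38%, 1.09%, 2.31% and 5.41% of glial ones. The fibroblasts of libraries 1 and 4 thus stood well above those of libraries 2 and 3 in this share.

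Within HoxB, Hoxb4 and Hoxb7 carried most of the glial signal. Hoxb4 is a gene of the neck and upper trunk that is also known for its part in blood stem cells, and Hoxb7 belongs to the trunk genes. In glia Hoxb4 was at 38.8, 96.8, 30.5 and 17.5 CPM and in fibroblasts at 0.463, 15.997, 21.0 and 0.776 CPM. The glial level was the higher in each library, by log2 ratios of 6.39 (5.52 to 7.25), 2.60 (2.06 to 3.20), 0.54 (-0.07 to 1.11) and 4.50 (3.68 to 5.45), of which that of library 3 had an interval that held 0. Hoxb7 was at 8.44, 40.3, 43.8 and 25.4 CPM in glia and 0.223, 13.7, 29.9 and 1.29 CPM in fibroblasts. Its log2 ratios were 5.24, 1.56, 0.55 and 4.30, with a lowest lower bound of 0.05 in library 3.

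The other HoxB genes lay at lower levels in glia. Hoxb3, on the anterior side of Hoxb4, was at 5.07, 7.39, 6.67 and 2.88 CPM in glia and at 0.0857, 4.57, 9.28 and 0.0647 CPM in fibroblasts, so in library 3 it was the higher in fibroblasts, with an interval (-1.85 to 0.66) on both sides of 0. In library 4, where the 6207 glia gave the most UMIs, Hoxb3 had 151 UMIs in glia and 1 in fibroblasts, Hoxb5 50 and 1, Hoxb9 54 and 1, and Hoxb8 81 and 0. For Hoxb3 the interval of the log2 ratio was 2.98 to 10.79. Hoxb8, a gene whose mutation in mice gives excess grooming, was 7.96-fold higher in these glia against a floor of 3 fibroblast UMIs, a log2 ratio of 2.99. The exact interval of its counts, 81 and 0, had a lower limit of 2.66 on the log2 scale. In library 3 Hoxb8 was at 5.72 CPM in glia and 3.91 in fibroblasts, with an interval of the log2 ratio (-1.03 to 1.88) on both sides of 0. Hoxb2, a hindbrain gene, had 17 glial UMIs and 0 fibroblast UMIs in library 2 and 17 and 1 in library 4, and the intervals of both ratios reached below 0.

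HoxC genes were lower in glia or had ratios near 0, depending on the library. Hoxc10, a gene of the lumbar region and the hindlimb, was at 5.07, 1.73, 2.86 and 5.09 CPM in glia and 19.4, 5.14, 12.2 and 19.6 CPM in fibroblasts. It was lower in glia in all 4 libraries, with log2 ratios of -1.94, -1.58, -2.09 and -1.94 and intervals below 0. Hoxc11, the next gene towards the tail, had 356 UMIs in fibroblasts of library 1 and 73 in those of library 4, against 0 and 16 in glia, and in library 4 the log2 ratio was -3.95 (-4.83 to -3.16). In library 1 the glial 0 rests on 171 cells, and with 3 UMIs there the log2 ratio was -0.27 with an upper limit of 0.04, so no difference was resolved in that library.

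Hoxc8, a gene of the thorax whose loss in mice alters ribs and motor neurons, differed between the fibroblasts of the libraries by more than counting error. Glia had 3.38, 3.57, 10.5 and 10.1 CPM and fibroblasts 6.96, 98.3, 89.2 and 8.28 CPM. The ratio was therefore -4.78 (-5.40 to -4.21) in library 2 and -3.09 (-4.10 to -2.24) in library 3 on the log2 scale, but 0.28 (0.00 to 0.57) in library 4. Hoxc9, another thoracic gene, was likewise lower in glia in libraries 2 and 3 (-3.47 and -1.70) and was at 13.6 CPM in glia and 11.4 CPM in fibroblasts of library 4. Hoxc4 was at 3.38, 5.42, 2.86 and 9.99 CPM in glia and 10.9, 25.1, 23.8 and 11.9 CPM in fibroblasts, and was lower in glia by 2.21 and 3.06 on the log2 scale in libraries 2 and 3. Hoxc5 was lower in glia by 2.80 in library 2 and had 1 glial UMI in library 3 (interval -8.28 to -0.39). In library 4 the intervals of Hoxc5 (-0.67 to 0.67) and Hoxc6 (-1.01 to 0.80) held 0. The gated glia also held the fibroblast marker list, at a summed 4631, 580.5, 2023 and 6698 CPM in libraries 1 to 4, against 122400, 55710, 32420 and 60816 CPM in fibroblasts. The glial markers summed to 6363, 5264, 5314 and 3994 CPM in the same glia, so in library 4 the fibroblast list had the higher sum. Its part in the glial HoxC level was not tested.

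HoxA and HoxD genes were scarce in glia. Hoxa2, a gene of the hindbrain and second branchial arch, had 63 glial UMIs in library 4 at a log2 ratio of 1.63 (0.43 to 3.13) to fibroblasts, but in library 3 it had 0 glial UMIs and 25 in fibroblasts. Hoxa11, a limb gene, had 1 UMI in glia of library 4 and 14 in fibroblasts. Hoxd9 was lower in glia in library 2 by 3.21 on the log2 scale (9 UMIs against 18) and in library 3, where glia had 1 UMI and fibroblasts 72. Hoxd10 had 0 glial UMIs in library 3 against 29. Hoxd1 had 244 UMIs in glia of library 4 and 1 in fibroblasts, with an interval of the log2 ratio of 3.68 to 11.48, and Hoxd4 had 84 and 3, at 3.05. Hoxd3 (25 and 1 UMIs), Hoxd8 (34 and 6) and Hoxd9 (69 and 34) lay at 0.477, 0.648 and 1.32 CPM in these glia. Scaled to the UMIs of each class, their log2 ratios were 1.30 (against the floor of 3 UMIs), 0.74 and -0.74. Hoxd9 was thus the lower in glia of library 4 too. The neuron marker list summed to 158.8 CPM in glia of library 4 and 41.6 CPM in fibroblasts, while 2 cells of that library were gated as neurons. Its part in the glial Hoxd1 level was not tested.

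Counted over the measured genes, which needed 10 UMIs on one side and a resolved ratio, 2 of 7 Hox genes were at least 2-fold higher in glia and 2 lower in library 1, against 27.9% and 12.4% of all genes. In library 2, 2 of 10 were higher and 6 lower, against 13.2% and 17.2%. In library 3, 0 of 14 were higher and 6 lower, against 13.3% and 16.2%, and in library 4, 10 of 21 were higher and 3 lower, against 14.8% and 18.7%. The medians of the log2 ratios were -0.46, -1.89, -0.62 and 0.74, beside 0.41, -0.06, 0.05 and 0.05 over all genes. Of the 39 symbols, 13, 13, 14 and 21 had 10 UMIs on a side, and the remaining ones had too few in both classes. The sums over HoxB and over HoxC gave the plainer contrast. HoxB was higher in glia by log2 ratios of 6.02, 2.10, 0.42 and 4.42. HoxC was lower, at -1.52, -3.50, -2.56 and -0.49, and no interval of these 8 ratios held 0. The HoxD sum changed direction between libraries, at 0.11 (-6.78 to 1.02), -1.72 (-2.55 to -0.86), -2.43 (-4.07 to -1.18) and 1.30 (0.89 to 1.73).

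**Figure D3:**
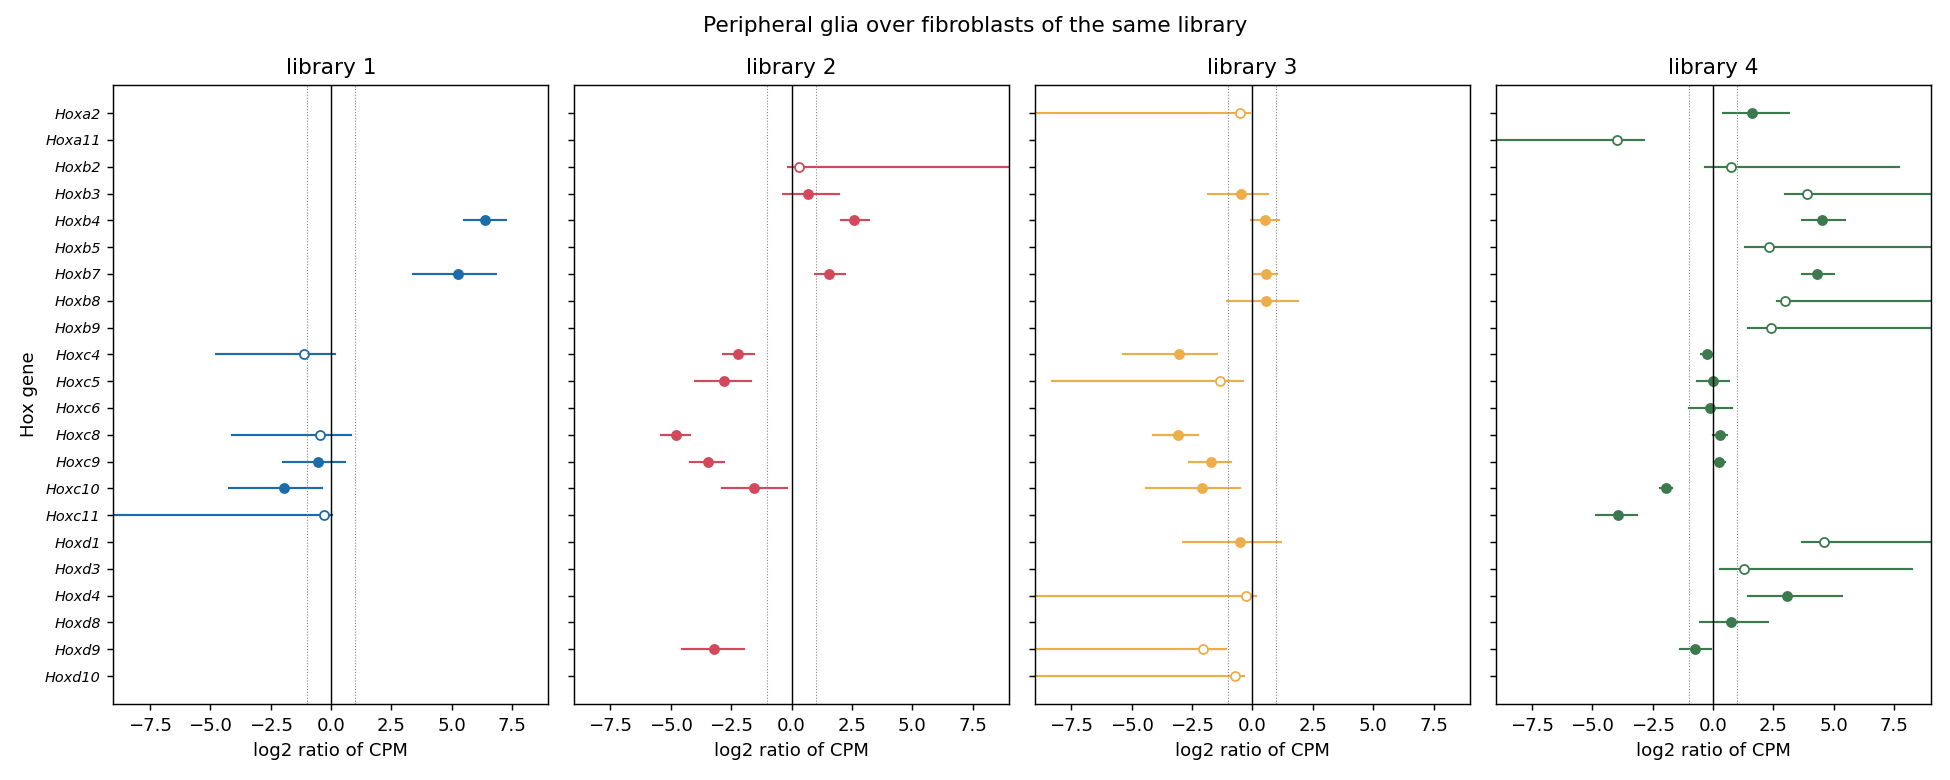
Log2 ratio of the level in peripheral glia over that in fibroblasts of the same library for each measured Hox gene, 1 panel per library, with 95% intervals cut at the axis limits and dotted lines at 2-fold. Open points had under 3 UMIs on a side, which was then set to 3; Hoxb4 and Hoxb7 lie right of 0 and Hoxc10 left of 0 wherever they are drawn.

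Glia were also split by myelin, division and satellite cell markers. In library 4, 1282 glia with at least 5 of 8 myelin markers had 96.3 CPM and the other glia 103.5 CPM, and the log2 ratios of the 20 measured genes ran from -0.80 to 0.20. None of the 20 was 2-fold higher or lower, against 2.65% and 2.47% of all genes. Dividing glia (at least 2 UMIs of Mki67 and Top2a together) had 106.8 CPM and glia without either gene 100.1 CPM, with Hoxb3 at 4.79 and 2.36 CPM and Hoxd8 at 1.18 and 0.537 CPM. These were the 2 of 18 measured genes at least 2-fold higher in dividing glia, and 0 were lower, against 6.11% and 2.4% of all genes. Counting error of these 2 ratios is not given, so neither is shown to be past 2-fold beyond it. In library 2, myelin-rich glia had 67.4 CPM and other glia 164.6 CPM, with Hoxb4 at 13.5 CPM (4 UMIs in 62 cells) and 93.2 CPM. The same split gave 117.6 and 128.3 CPM in library 3, with intervals that overlapped. In library 1 it gave 69.0 and 78.8 CPM, on only 5 Hox UMIs in the myelin-rich glia. Glia of library 2 with at least 3 of 6 satellite cell markers, the glia that surround neuron cell bodies, were at 182.9 CPM, with Hoxb4 at 107.1 and Hoxb3 at 10.98 CPM against 4.26 CPM in the other glia, a log2 ratio of 1.37 (0.52 to 2.27). Of 7 measured genes, Hoxb3 was at least 2-fold higher and Hoxc10 (3 against 10 UMIs) lower, against 1.18% and 4.03% of all genes. The glial subsets also differed in median depth. In library 4 it was 9682.5 UMIs in myelin-rich glia and 6937 in the other glia. Dividing glia there had 10805 UMIs and glia without either gene 7070. In library 2 it was 4122 in myelin-rich glia, 13265 in glia with satellite cell markers and 7515 in the other glia. The part of depth in these values was not tested. These subsets and those below were chosen after levels had been seen.

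Along the HoxC cluster, the gene with the highest level in fibroblasts differed between libraries. Hoxc8 was highest in libraries 2 and 3, at 98.3 CPM (84.1 to 114.1) and 89.2 CPM (81.9 to 97.0), while Hoxc10 was highest in libraries 1 and 4, at 19.4 CPM (18.3 to 20.6) and 19.6 CPM (17.4 to 21.9). Beyond that peak, Hoxc11 was at 6.11 and 4.72 CPM in libraries 1 and 4. It had 0 UMIs in 247 and 941 fibroblasts of libraries 2 and 3, where 3 UMIs would be 1.71 and 0.488 CPM. Hoxc9 was at 14.9, 35.4, 40.4 and 11.4 CPM. Because the libraries come from different tissues and ages and are not matched to them, what sets this difference cannot be told apart here.

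**Figure D4:**
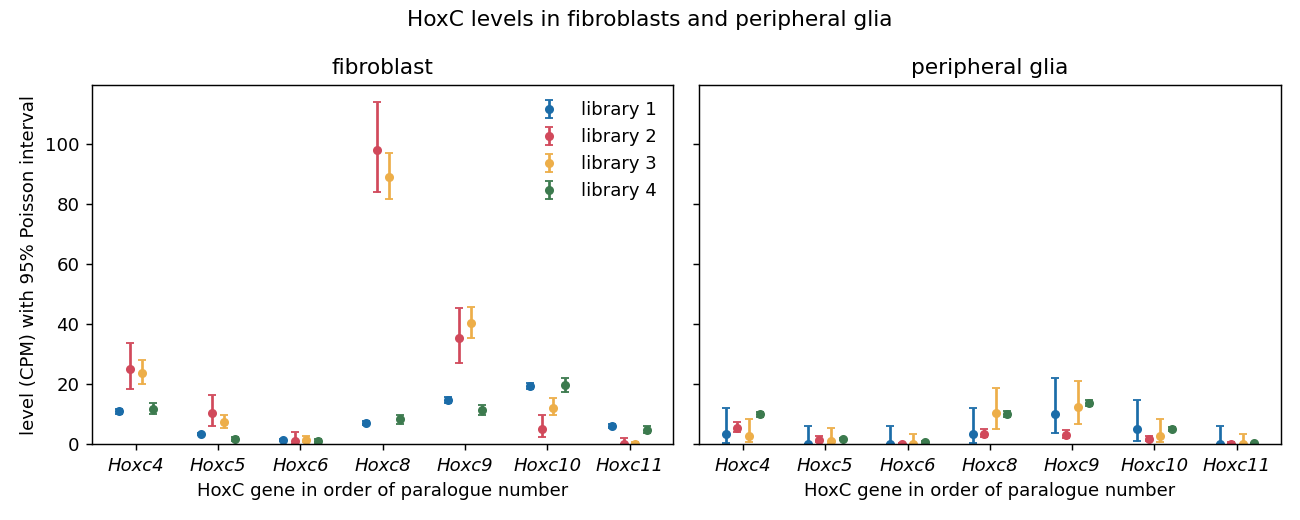
Levels of the HoxC genes in order of paralogue number, in CPM with 95% Poisson intervals, in fibroblasts (left) and peripheral glia (right), coloured by library. Fibroblasts of libraries 2 and 3 peak at Hoxc8, those of libraries 1 and 4 at Hoxc10, and glia reach at most 13.6 CPM.

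Fibroblasts with Pi16, a marker of a stem-like fibroblast type of the outer connective tissue, were compared with those without it. In library 2 Hoxc8 was at 156.1 CPM in 102 fibroblasts with at least 2 Pi16 UMIs and 45.1 CPM in 119 without any, a log2 ratio of 1.79 (1.24 to 2.37), and Hoxc9 was at 50.3 and 20.04 CPM. In library 3 Hoxc8 was at 111.3 and 77.0 CPM (0.22 to 0.84), and in libraries 1 and 4 the intervals for Hoxc8 held 0. Hoxd9 was lower with Pi16 in library 1 (1.95 against 4.76 CPM) and library 2 (3.87 against 17.5 CPM) and in library 3 its interval held 0. At least 2-fold higher in Pi16 fibroblasts were 0 of 12, 4 of 7, 0 of 14 and 1 of 6 measured Hox genes in libraries 1 to 4, against 5.86%, 10.5%, 4.75% and 6.44% of all genes. Lower were 4, 1, 0 and 0, against 8.54%, 7.06%, 7.43% and 6.19%. The median log2 ratios were -0.26, 1.04, 0.06 and 0.37, beside 0.13, 0.12, -0.02 and 0.01 over all genes. The Pi16 fibroblasts were the deeper ones, with median depths of 9233, 7817, 8787.5 and 16801.5 UMIs beside 7018, 6016, 5295.5 and 12083. The part of depth in these values was not tested.

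Endothelial cells, which line vessels, joined HoxB to Hoxd9. Hoxb4 was at 102, 125, 57.6 and 82.8 CPM and Hoxb7 at 58.4, 76.0, 31.4 and 37.0 CPM. Hoxd9 was at 56.5, 60.3, 4.19 and 23.3 CPM, so library 3 was low. In fibroblasts Hoxd9 was at 3.93, 10.3, 11.7 and 2.20 CPM, and against these the endothelial level was 14.4-fold, 5.87-fold and 10.6-fold higher in libraries 1, 2 and 4. In library 3 the fibroblast level was higher at a log2 ratio of 1.48 (0.07 to 3.40), on 72 and 4 UMIs. Hoxb4 was lower in fibroblasts than in endothelial cells by 7.78, 2.97, 1.46 and 6.74 on the log2 scale, and it was lower in glia than in endothelial cells in each library (-1.39, -0.37, -0.92 and -2.24).

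HoxC genes were rare in endothelial cells. Hoxc8 had 0, 22, 7 and 2 UMIs, Hoxc9 0, 5, 1 and 2, and Hoxc10 0, 1, 0 and 6. In library 1, 0 HoxC UMIs were found among 136 Hox UMIs of the 76 cells. Of the measured Hox genes, 2 of 9, 4 of 14, 7 of 14 and 4 of 11 were at least 2-fold higher in fibroblasts than in endothelial cells, against 16.6%, 15.4%, 20.7% and 19.2% of all genes, and 4, 10, 1 and 6 were lower, against 25.4%, 21.8%, 13.8% and 14.9%. The median log2 ratios were 0.11, -1.88, 0.87 and -3.41, beside -0.19, -0.20, 0.17 and 0.09 over all genes.

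Mural cells, on few UMIs, were led by HoxC genes in libraries 3 and 4. In library 4 Hoxc10 was at 33.1 CPM and Hoxc9 at 27.2 CPM in mural cells, against 19.6 and 11.4 CPM in fibroblasts, and in library 3 Hoxc9 was at 79.2 CPM against 40.4. The interval of the log2 ratio of fibroblasts over mural cells for Hoxc9 was -2.04 to -0.36 in library 4 and reached 0 in library 3. Hoxb4 was at 244.2 CPM in mural cells of library 2, on 22 UMIs in 23 cells, 39.6 CPM in library 3 and 7.78 CPM in library 4. Macrophages had Hoxb4 at 3.77, 12.4, 2.82 and 0 CPM and Hoxc8 at 1.30, 0, 16.9 and 0.700 CPM, each on at most 26 UMIs.

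Neurons, measured in libraries 2 and 3, were set apart by Hoxd1, the most anterior HoxD gene, which in mice takes part in the wiring of nociceptors, the neurons that sense pain. Hoxd1 was at 15.6 CPM in neurons of library 2 and 56.9 CPM in those of library 3, and led the Hox genes of library 3. In glia it was at 1.60 and 2.86 CPM, in fibroblasts at 0.571 and 4.07 CPM, and in macrophages at 4.97 and 5.64 CPM on 2 UMIs each. Of neurons thinned to 2000 UMIs, 3.42% and 9.24% had a Hoxd1 UMI (7.32% and 34.6% unthinned, at median depths of 1151.5 and 6120 UMIs). The macrophage shares were 1.02% and 1.59% thinned and 1.68% and 2.70% unthinned. The thinned ones were 1 of 98 and 1 of 63 cells. Their intervals, 0.03% to 5.55% and 0.04% to 8.53%, overlapped those of the thinned neurons. Thinning left out 4051 and 1347 shallow neurons.

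The promoters of Hoxd1, Hoxd9 and Hoxd10 are shown because these HoxD genes are among those in the neuron comparisons that follow. Each is the 250 bases before the start of the gene from RefSeq (build GRCr8, plus strand), at chr3:80072791-80073040 for Hoxd1, chr3:80007756-80008005 for Hoxd9 and chr3:80001697-80001946 for Hoxd10. Capitals mark CCAAT and GGGCGG on either strand, the boxes known to bind NF-Y and Sp1.
Hoxd1: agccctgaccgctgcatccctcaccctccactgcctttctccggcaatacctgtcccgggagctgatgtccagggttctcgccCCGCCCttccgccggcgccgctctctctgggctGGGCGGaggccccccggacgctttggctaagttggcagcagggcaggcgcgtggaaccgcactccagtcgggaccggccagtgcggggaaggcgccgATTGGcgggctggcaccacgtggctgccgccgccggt
Hoxd9: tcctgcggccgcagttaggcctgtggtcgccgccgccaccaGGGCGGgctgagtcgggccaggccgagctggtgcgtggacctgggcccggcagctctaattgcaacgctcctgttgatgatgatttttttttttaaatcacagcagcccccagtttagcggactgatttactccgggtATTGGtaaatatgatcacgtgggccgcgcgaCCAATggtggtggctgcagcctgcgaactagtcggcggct
Hoxd10: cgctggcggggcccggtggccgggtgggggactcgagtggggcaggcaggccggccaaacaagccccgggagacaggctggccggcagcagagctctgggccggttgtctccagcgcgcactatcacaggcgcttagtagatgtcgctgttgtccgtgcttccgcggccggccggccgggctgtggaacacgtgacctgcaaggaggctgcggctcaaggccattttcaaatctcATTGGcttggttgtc
Hoxd1 had 1 CCAAT and 2 GGGCGG, Hoxd9 had 2 and 1, and Hoxd10 had 1 and 0. Of all 33469 promoter windows of this length, 34.02% held CCAAT and 30.5% GGGCGG, as did 12 and 10 of the 20 Hox genes with a window. The motifs TATAAA, TGATNNAT (the site of Pbx and Hox pairs), TGACAG (the Meis site) and TTTATNG were searched on both strands too and did not occur in these 3 windows. TTTATNG can overlap TATAAA read on the other strand. Of all windows, 12.9%, 7.96%, 15.8% and 10.1% held them. The windows had 25, 20 and 21 CpG dinucleotides, beside medians of 20 over the windows of Hox genes and 5 over all windows.

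Library 2 neurons were led by Hoxc9 (17.6 CPM), Hoxd1, Hoxb4 (12.3) and Hoxb5 (12.2), and library 3 neurons by Hoxd1, Hoxc9 (29.4), Hoxb7 (24.7) and Hoxc8 (17.8). Hoxb5 was at 2.39 CPM in library 3, and Hoxb7 at 5.50 CPM in library 2. Against neurons, glia of library 2 had more Hoxb4 (log2 ratio 2.98), Hoxb7 (2.87) and Hoxb3 (1.87) and less Hoxb5 (-3.04) and Hoxd1 (-3.29). In library 3 glia had more Hoxb4 (1.53), and Hoxd1 was again lower (-4.31). Of 19 measured genes in library 2, 5 were at least 2-fold higher in glia and 8 lower, against 21.3% and 31.6% of all genes. Of 10 in library 3, 1 was higher and 2 lower, against 27.5% and 21.1%. The median log2 ratios were -0.24 and -0.63, beside -0.32 and 0.06 over all genes. In libraries 2 and 3 the neuron marker list also summed to 953.9 to 3540 CPM in each of the other classes, against 18384 and 23767 CPM in neurons. Its part in the Hox levels of those classes was not tested.

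Neuron barcodes ranged widely in depth, so those with at least 20000 UMIs (585 in library 2 and 1407 in library 3) were taken apart as deep neurons. Their summed Hox levels, 99.9 and 172.1 CPM, lay close to those of the neuron barcodes under 2000 UMIs, 105.8 and 168.9 CPM. The makeup differed more in library 2: Hoxb5 was at 13.3 CPM in deep and 5.46 CPM in shallow neurons, while Hoxb7 was at 4.24 and 14.6 CPM. Hoxd1 was at 16.1 and 15.2 CPM in library 2 and 58.0 and 50.6 CPM in library 3, with intervals of the ratio that held 0.

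Deep neurons were split by Scn10a, the sodium channel of nociceptors. Hoxd1 was at 17.1 CPM (650 UMIs) in 524 neurons of library 2 with at least 2 Scn10a UMIs and 2.21 CPM (6 UMIs) in 61 with fewer, a log2 ratio of 2.95 (1.82 to 4.40). In library 3 the levels were 60.4 CPM in 1191 and 43.0 CPM in 216 neurons (0.34 to 0.65). Among the genes measured in both libraries, Hoxd1 was the 1 gene whose interval lay above 0. Hoxc8 was lower with Scn10a, at 7.22 against 19.5 CPM in library 2 and 12.8 against 47.0 CPM in library 3, as were Hoxc10 (3.68 against 12.2, and 4.14 against 10.5 CPM) and Hoxd9 (8.62 against 26.2, and 3.93 against 7.48 CPM). Hoxd10 was at 4.20 against 17.0 CPM in library 2 and 1.17 against 1.67 CPM in library 3, where the interval held 0.

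At least 2-fold higher in Scn10a neurons were 1 of 14 measured Hox genes in library 2 and 0 of 19 in library 3, against 9.87% and 4.77% of all genes, and 8 and 7 were lower, against 11.6% and 9.78%. The median log2 ratios were -1.25 and -0.63, beside -0.04 in each library over all genes. Scn10a neurons were deeper, with medians of 72427.5 against 43367 UMIs in library 2 and 45906 against 37560 in library 3. The part of depth in these values was not tested.

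**Figure D5:**
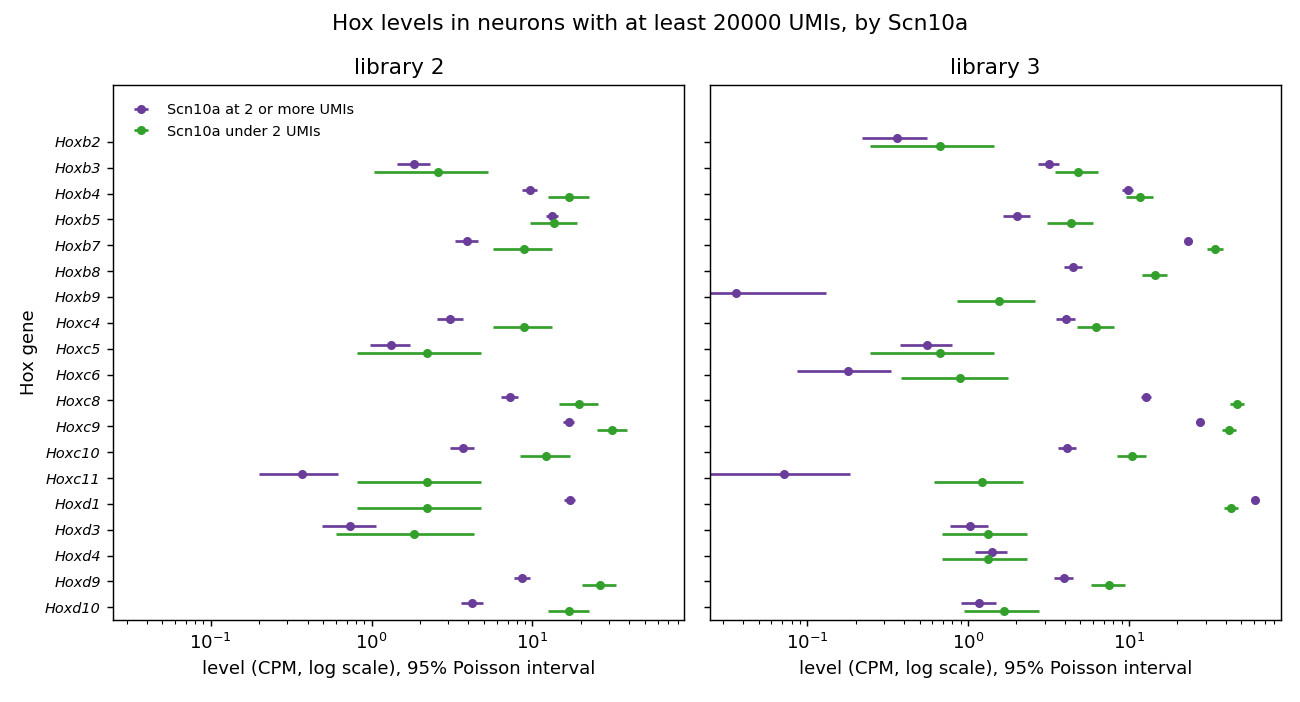
Levels of the measured Hox genes in CPM on a log scale, with 95% Poisson intervals, in neurons with at least 20000 UMIs, split by Scn10a, for libraries 2 and 3; a gene is drawn in a library only if measured there. Hoxd1 lies further right with Scn10a, and Hoxc8, Hoxc10 and Hoxd9 lie further right without it.

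Ntrk3, the receptor of proprioceptors and touch neurons, gave the reverse picture in library 3, the library with enough such cells. In 68 deep neurons with at least 2 Ntrk3 UMIs Hoxc8 was at 72.7 CPM, against 13.01 CPM in 1279 neurons with none, a log2 ratio of 2.48 (2.28 to 2.68). Hoxd1 was at 27.1 against 61.6 CPM (-1.48 to -0.90), Hoxc10 at 12.0 against 4.46 CPM, Hoxb8 at 11.8 against 5.31 CPM and Hoxc11 at 2.82 against 0.0694 CPM, on 11 and 4 UMIs. Of 16 measured genes, 6 were at least 2-fold higher with Ntrk3 and 1 lower, against 12.5% and 7.65% of all genes. The median log2 ratio was 0.03, beside -0.02 over all genes, and the median depths were 56972 and 44805 UMIs.

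Hoxc9 and Hoxd9 UMIs were found in larger shares of the neurons with a UMI of Hoxc10 or Hoxd10 than of the others. So were UMIs of Hoxc8, though in library 2 its intervals overlapped. Deep neurons were thinned to 20000 UMIs, at which a median of 1 Hox gene per neuron was found in library 2 and 2 in library 3, and 27.5% and 9.17% of neurons had none. Neurons with a UMI of Hoxc10 or Hoxd10 (67 and 141) had a Hoxd9 UMI in 47.8% (35.4% to 60.3%) and 24.1% (17.3% to 32.0%), against 7.53% and 4.19% of the other neurons. Hoxc9 was found in 47.8% and 58.9% of them, against 20.8% and 37.4%. For Hoxc8 the shares were 19.4% (10.8% to 30.9%) against 12.9% (10.2% to 16.1%) in library 2. In library 3 they were 34.8% (26.9% to 43.2%) against 19.4% (17.3% to 21.7%). Hoxb8 was at 11.3% against 7.50% in library 3, with intervals that overlapped. Hoxb7 was found in about equal shares, at 7.46% against 8.11% in library 2 and 38.3% against 34.8% in library 3. Hoxd1 was found in 16.4% against 25.7% and in 40.4% against 54.7%. These are shares over cells of 1 library, not over animals, and no test was made.

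Hox proteins bind DNA with TALE homeodomain cofactors of the Pbx, Meis and Pknox families. Hox genes are kept silent by Polycomb complexes, which mark histone H3, and are kept active by Trithorax proteins. Of the 9 cofactor genes, 8, 7, 8 and 9 were measured between glia and fibroblasts in libraries 1 to 4. Of all genes, 27.9%, 13.2%, 13.3% and 14.8% were at least 2-fold higher in glia and 12.4%, 17.2%, 16.2% and 18.7% lower, with median log2 ratios of 0.41, -0.06, 0.05 and 0.05. Of the cofactors, 0, 0, 1 and 0 were higher and 3, 2, 1 and 5 lower, with median log2 ratios of -0.58, -0.21, -0.40 and -1.43. Of 17 Polycomb genes and demethylases of their mark, 14, 15, 15 and 17 were measured, with 6, 2, 2 and 3 higher in glia, 0, 1, 0 and 0 lower, and medians of 0.87, 0.00, 0.15 and 0.48. The counts higher in libraries 2 to 4 lay near the shares of all genes. Ezh2, the enzyme that writes the Polycomb mark, was higher in glia in all 4 libraries, at log2 ratios from 1.18 to 2.84 (52.7 to 157.1 CPM in glia and 18.9 to 48.5 CPM in fibroblasts). Of 8 Trithorax genes, 2, 1, 0 and 0 were higher and 0, 0, 1 and 1 lower, with medians of 0.80, 0.30, 0.09 and -0.05, and no count lay far above the shares of all genes. Of the 6 Hox cluster noncoding RNAs of the list, 0 were found under their symbols among the genes counted, so they could not be measured.

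Other homeobox and T-box genes of position stood on the fibroblast side: 0 of 6, 6, 6 and 11 measured were higher in glia, and 6, 6, 5 and 9 were lower, with medians of -3.48, -5.63, -3.54 and -6.38. Of all genes, 12.4%, 17.2%, 16.2% and 18.7% were lower, with medians of 0.41, -0.06, 0.05 and 0.05. Prrx1, a limb mesenchyme gene, was lower by log2 ratios from -7.90 to -3.54, as were its relative Prrx2 (-7.91 to -3.61), Tbx15 (-7.55 to -3.22), Tbx18 (-7.18 to -2.92) and Shox2 (-7.28 to -1.54). Ranges in this paragraph run from the lowest to the highest ratio over the libraries measured and are not intervals. Against neurons of libraries 2 and 3, glia had less Meis2 (-3.65 to -2.67), Meis3 (-2.40 to -2.18) and Pknox2 (-2.85 to -1.53) and more Ezh2 (3.1 to 4.08), Kdm6b, an eraser of the Polycomb mark (3.02 to 3.19), Bmi1 (1.85 to 2.02), Phc1 (1.15 to 1.39) and Kmt2a, a Trithorax enzyme (1.12 to 1.24). Fibroblasts had less of the Polycomb genes Cbx7 (-4.70 to -1.70) and Suz12 (-2.64 to -1.03) and more Meis1 (1.43 to 2.22, 2 libraries) than endothelial cells. Msx1 was lower in glia than in endothelial cells (-7.16 to -2.16, 3 libraries), and Meis3 lower in fibroblasts than in mural cells (-3.02 to -1.19), as were Jarid2 (-2.95 to -1.57), Kdm6a (-1.999 to -1.05) and Kdm6b (-1.18 to -1.05) in 2 libraries. The mural side rests on only 23, 43 and 59 cells in libraries 2 to 4. Counting error of these mural ratios is not given, so they are not shown to be resolved. Against macrophages, fibroblasts had more Meis1 (2.42 to 5.13), Meis2 (2.10 to 3.94), Pitx1 (2.30 to 2.63), Emx2 (1.07 to 3.52) and Pcgf2 (1.24 to 1.55), each in 2 libraries.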

How the data were processed

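Rat sciatic nerve and dorsal root ganglion cells were profiled with the Chromium Single Cell 3′ v3 kit, per the labels' protocols. The authors deposited raw UMI counts in 1 matrix, made with Cell Ranger 3.1.0 per the file headers. The submitters' processing notes name CASAVA 1.8, Seurat and the build Rnor_6.0 with no role. Barcodes with at least 500 genes and at most 20% mitochondrial UMIs were kept. A class needed 3 of its markers, each with 1 UMI, and 2 more than any other class. Cells with near-equal marker counts of 2 classes stayed unassigned, but a doublet of unequal depth can pass. The 19 classes used 125 of 133 markers. Scrublet (scanpy 1.11.5) served as an alternative, since it called 395, 0, 0 and 3 doublets. Rows of 1 symbol were summed. Ratios used CPM with a floor of 3 UMIs per side, at least 20 cells per side and 10 UMIs on one side. Ratios of genes whose floor lay above the other side's level were dropped, a rule added after the data were seen. The members, lists, subsets and settings were chosen with earlier results of these data known. Named were the Hox genes measured between glia and fibroblasts, the 10 with most UMIs, the top 3 of each class, and list genes past 2-fold one way in all libraries measured (at least 2); others were chosen after their values were seen. Values of some genes that this rule would name are not reported here. The ratio step was tested on simulated data. Matrices and intervals were computed with scipy 1.17.1 and numpy 2.4.6 under Python 3.11.15, tables with pandas 2.3.3 and figures with matplotlib 3.10.9. The contrast of fibroblasts with perineurial cells (2 cells) could not be made.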

Additional observations from a re-analysis of the deposited data

Results flagged for a closer look

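Hox UMIs also stood in barcodes that no comparison used, at levels above those of the macrophages of the same library. Barcodes past the filters that fell in no class had Hox levels of 66.1, 188, 209 and 113 CPM in libraries 1 to 4. Barcodes removed by the filters had 45.7, 79.0, 90.0 and 34.8 CPM. The macrophage levels were 9.13, 29.8, 31.0 and 4.20 CPM.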

How the results depend on the processing

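Of the values recomputed under an alternative, 428 stayed within their interval or within 1.5 times their count, 60 moved and 3 reversed. Lowering the margin between classes, with ties still left unassigned, or removing Scrublet doublets moved none of the summed levels, glia to fibroblast counts or mean paralogue numbers. Scaled without mitochondrial and ribosomal protein genes, Hox levels were 83.5, 264, 345 and 83.2 CPM in fibroblasts of libraries 1 to 4 and 213, 166 and 135 CPM in glia of libraries 2 to 4, since the divisor is smaller. With at most 10% mitochondrial UMIs, glia of libraries 2 and 4 had 126 and 98.7 CPM. In library 2 the glia to fibroblast log2 ratio was then 1.45 for HoxB and -2.81 for HoxC, the glial mean paralogue number was 5.78, and 3 genes were lower; in library 1, 1 was higher and 0 were lower. The cause was not tested. With cells thinned to 2000 UMIs, fibroblasts had 72.3 and 257 CPM in libraries 1 and 3. HoxC was then at -3.90 in library 2, HoxB at 5.14 in library 4, and the fibroblast mean paralogue number was 8.33 in library 4. Thinning leaves fewer UMIs, and then 1, 1 and 3 genes were higher in glia in libraries 1, 3 and 4, and 1, 3 and 2 lower in libraries 1, 2 and 3. It also reversed the HoxC ratio of fibroblasts over endothelial cells in library 4 (-0.060) and of glia over endothelial cells in libraries 1 and 4 (-0.22 and -0.64), where endothelial UMIs were few. Asking for 20 UMIs left 1 gene higher in library 1 and 3 lower in library 2. With 2 UMIs per marker, or at least 1000 genes per cell, 1 gene was lower in library 1. Keeping genes under the floor, an alternative chosen after seeing the data, gave 6 genes higher in library 1. The genes this added had under 3 UMIs in glia. They counted as higher only because the floor of 3 UMIs lay above their fibroblast level, so they are not shown to be higher in glia. No paired analysis was possible because each group has 1 library and no label ties a library to a group.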
